A study of Mus musculus with 14 samples.

Results

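Skeletal muscle contracts when calcium leaves the sarcoplasmic reticulum, and 10 genes of that store were followed in PWS-IC del mice, which lack the imprinting center of the Prader-Willi domain, and in wild-type mice. The 10 genes were Casq1, Casq2, Pln, Sln, Atp2a1, Atp2a2, Ryr1, Ryr3, Trdn and Jph1, found on the array by their symbols. They are among 18193 genes named by 1 symbol on the array, and 27 of the array's 45037 non-control probe sets are annotated to them. RNA came from the vastus lateralis of the quadriceps and from brain tissue, with 3 PWS-IC del and 4 wild-type samples for each tissue, labelled as biological replicates. The wild-type mice were littermates of the same age as the mutants, whose age is not given in the sources used here, and the mice of both genotypes were F1 hybrids of FVB and B6. The labels do not say whether a brain and a muscle sample with the same number came from 1 mouse. Whole tissue was measured, so each value is a mixture of the tissue's cell types.

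In a resting fibre the store is filled by the SERCA pumps and its calcium is held by calsequestrin. A nerve impulse opens the ryanodine receptors at the triad, the junction of the store with the cell's surface tubules. Slow and fast fibres use partly different members of each family. Casq1 and Atp2a1 are the calsequestrin and the pump of fast fibres, whereas Casq2, Pln and Atp2a2 are used in heart and in slow fibres.

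Each sample was read on its own Affymetrix Mouse Genome 430 2.0 array, and all levels below are log2(intensity + 16), where 1 unit is a doubling for all but dim genes. Median intensity was 88.8 to 96.4 in the muscle arrays and 142.1 to 170.1 in the brain arrays. Arrays of 1 tissue correlated at 0.981 to 0.991 in muscle and 0.952 to 0.992 in brain. Snhg14, a host transcript of the imprinted domain, averaged 6.09 ± 0.16 (SD, n = 3) in PWS-IC del muscle and 8.29 ± 0.11 (SD, n = 4) in wild-type muscle (adjusted p = 1.53e-04). In brain it averaged 8.08 ± 0.32 (SD, n = 3) in PWS-IC del and 11.72 ± 0.34 (SD, n = 4) in wild-type (adjusted p = 1.89e-04), so it fell in both tissues. The muscle marker Ckm averaged 13.73 in PWS-IC del muscle and 13.81 in wild-type muscle, and the mean of 5 neuron markers was 12.82 in brain of either genotype. Brain arrays wild-type 1 and 3 stood apart in carrying skeletal muscle transcripts, and brain arrays PWS-IC del 2 and wild-type 3 were high in the Purkinje cell gene Pcp2. Where the difference of a member gene tested in brain rests on these arrays, its value without them is given too. In muscle, arrays wild-type 2 and 4 had the highest neuron means, of 7.66 and 7.01, while the other 5 arrays lay at 5.61 to 6.55.

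In muscle, none of the 10 genes passed an adjusted p of 0.05 in limma's test, where 0.117% of the 13644 genes tested did. At an unadjusted p under 0.05, Casq2 and Pln were lower in PWS-IC del muscle and no member was higher, against 11.9% of all genes in either direction. The same genes were the only members whose groups did not overlap. That is 2 of 10 lower and 0 of 10 higher, against 5.86% lower and 6.31% higher over all genes. The median difference of the members was -0.04, and that of all genes tested was 0.015. With array quality weights, an alternative that passed 1861 of the 13644 genes, 2 of the 10 members passed, Casq2 and Pln.

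**Figure D1:**
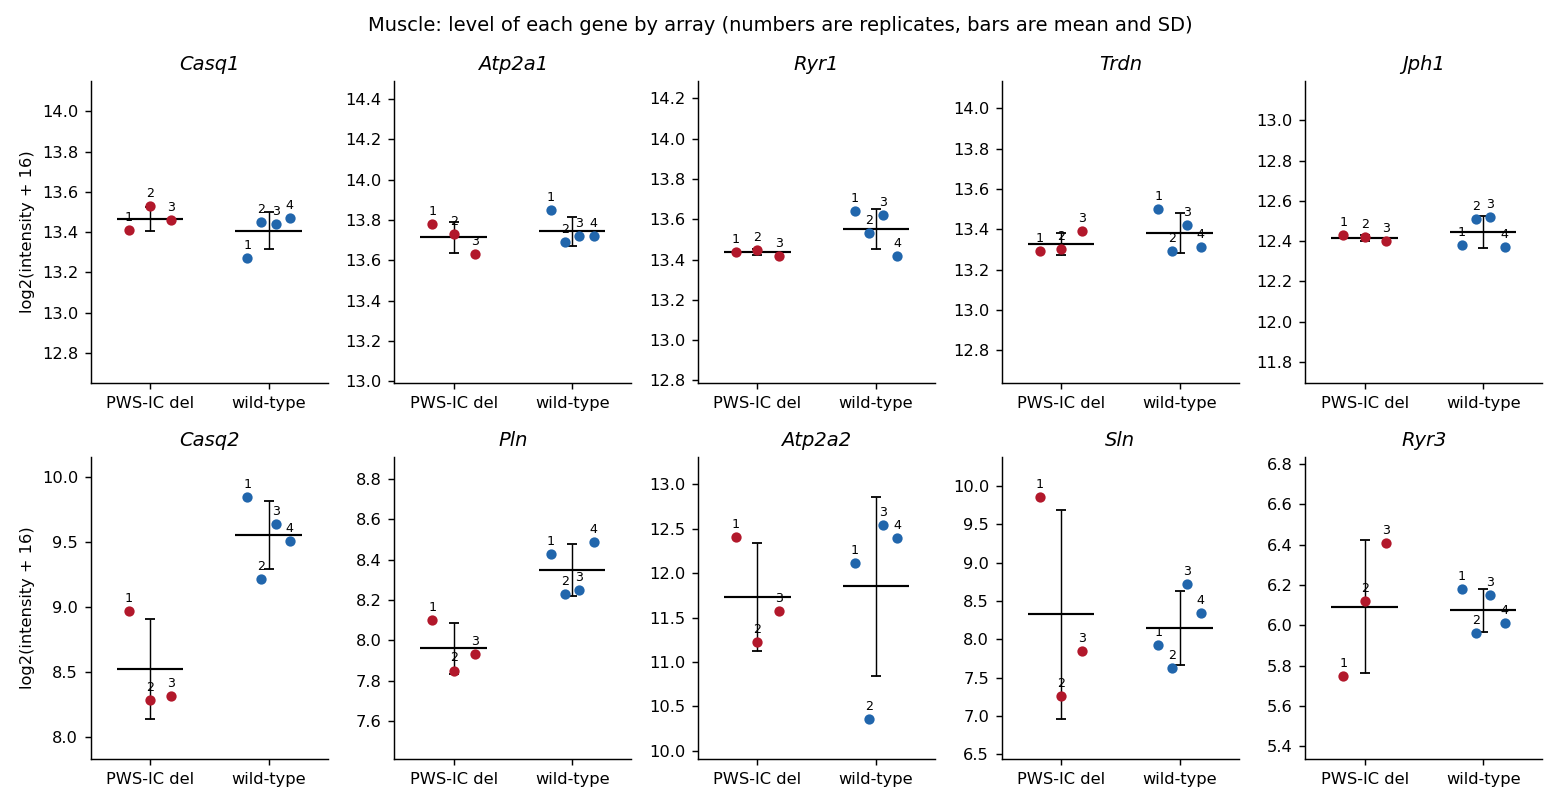
Level of each of the 10 genes in vastus lateralis as log2(intensity + 16), by array, with PWS-IC del (n = 3) left of wild-type (n = 4) in each panel, numbers for replicates and bars for mean and SD. Each panel has its own range. In the Casq2 and Pln panels every PWS-IC del array lies below every wild-type array, and in the Sln and Atp2a2 panels the arrays of each genotype spread over more than 1 unit.

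Casq2 encodes the calsequestrin of heart and slow fibres, the buffer that holds calcium inside the store. It stood at 8.97, 8.29 and 8.32 in PWS-IC del muscle, against 9.85, 9.22, 9.64 and 9.51 in wild-type muscle. The highest mutant array was therefore below the lowest wild-type array. The mean was 8.53 ± 0.38 (SD, n = 3) in PWS-IC del and 9.56 ± 0.26 (SD, n = 4) in wild-type muscle, a difference of -1.03 ± 0.20 (SE) or 0.49 times the wild-type level on this scale. The adjusted p was 0.105, and Casq2 was number 91 of all genes in order of p. An exact 2-sided permutation test gave an unadjusted p of 0.0286, the smallest that 3 against 4 arrays allow. It rests on the same separation of the arrays and is not separate evidence. Leaving out each array in turn gave differences of -1.25 to -0.91 and adjusted p-values of 0.0792 to 0.319. The single probe set of Casq2, 1422529_s_at, carries the suffix the array design gives to probe sets that can match several transcripts. In whole muscle, fewer cells of a type and less RNA per cell cannot be told apart.

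Pln encodes phospholamban, an inhibitor of the SERCA pumps that is released from them when it is phosphorylated. Its brightest probe set read 8.10, 7.85 and 7.93 in PWS-IC del muscle, against 8.43, 8.23, 8.25 and 8.49 in wild-type muscle. The groups did not overlap, and the difference was -0.39 ± 0.10 (SE) with an adjusted p of 0.204. The second probe set read 5.77, 5.71 and 5.54 in PWS-IC del muscle, against 6.49, 5.91, 6.12 and 6.27 in wild-type muscle. The third read 6.08, 5.62 and 5.80 in PWS-IC del muscle, against 6.40, 6.13, 6.35 and 6.47 in wild-type muscle. All 3 probe sets thus had every mutant array below every wild-type array, with differences of -0.39, -0.53 and -0.51. Their adjusted p-values over all 33777 probe sets tested were 0.205 to 0.217. Probe sets of 1 gene share their samples and are not separate evidence.

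The sequences just before the starts of Casq2 and Pln are shown because these are the members whose groups separated, and those of Casq1 and Atp2a1 because they are the fast-fibre calsequestrin and pump. They are the 250 bases before each gene's start in the RefSeq table of GRCm38.p6, which holds 5 of the 10 members. Casq2 is at chr3:102086165-102086414 on the plus strand, Pln at chr10:53337436-53337685 on the plus strand, Casq1 at chr1:172219896-172220145 on the minus strand and Atp2a1 at chr7:126463074-126463323 on the minus strand. Capitals mark matches on either strand to 5 promoter motifs. These are the E-box CANNTG, the MEF2 motif, the M-CAT box CATTCC, the CArG box and the run TATAAA. The longer MEF2 and CArG motifs are given by name alone.
Casq2: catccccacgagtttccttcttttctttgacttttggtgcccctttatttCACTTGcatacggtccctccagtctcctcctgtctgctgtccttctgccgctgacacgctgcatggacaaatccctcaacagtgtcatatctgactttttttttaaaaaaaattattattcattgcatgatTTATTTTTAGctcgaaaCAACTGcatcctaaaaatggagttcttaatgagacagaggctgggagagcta
Pln: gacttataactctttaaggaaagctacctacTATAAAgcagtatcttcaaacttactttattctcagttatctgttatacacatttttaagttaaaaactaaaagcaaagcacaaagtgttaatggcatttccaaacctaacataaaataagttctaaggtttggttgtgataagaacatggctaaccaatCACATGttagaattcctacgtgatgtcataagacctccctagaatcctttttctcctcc
Casq1: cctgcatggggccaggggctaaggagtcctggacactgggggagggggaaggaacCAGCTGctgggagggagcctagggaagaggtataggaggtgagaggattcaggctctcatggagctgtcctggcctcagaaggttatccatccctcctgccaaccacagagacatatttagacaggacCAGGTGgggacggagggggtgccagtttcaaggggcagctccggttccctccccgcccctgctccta
Atp2a1: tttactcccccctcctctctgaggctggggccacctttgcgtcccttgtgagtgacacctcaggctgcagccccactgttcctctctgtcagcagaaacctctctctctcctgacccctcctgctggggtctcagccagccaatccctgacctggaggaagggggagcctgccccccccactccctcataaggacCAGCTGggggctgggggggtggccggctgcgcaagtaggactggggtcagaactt

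Casq2 was the only one of the 5 members in the table with a MEF2 match, at bases -69 to -60 from the start. It lies between E-boxes at -200 to -195 and -52 to -47. Pln held an E-box at -59 to -54 and TATAAA at -219 to -214, Casq1 held E-boxes at -195 to -190 and -67 to -62, and Atp2a1 held an E-box at -55 to -50. Of 32851 promoters of the same length, 66.2% held an E-box, 12.6% an M-CAT box, 12.4% TATAAA, 2.92% a MEF2 match and 1.47% a CArG box. An E-box is thus common to most promoters, and a MEF2 match is not. A match is a run of letters and shows no binding.

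Markers of fibre types and of other cells were read beside these values. The slow-fibre list had 9 tested genes in muscle, 6 above 0 and 3 below, with a median of 0.05. This list had none called and 1 with every mutant array lower, against 5.86% of all genes. Its defining members Myh7, Tnnt1 and Myl2 differed by 0.25, 0.04 and 0.07, within the spread of their groups. The 3 below 0, named after their values were seen, were the larger differences of the list, at -0.78 for the light chain gene Myl3, -0.68 for Myoz2 and -0.56 for the Z-disc gene Actn2. Actn2 was the one without overlap, at 12.33 ± 0.13 (SD, n = 3) in PWS-IC del and 12.90 ± 0.25 (SD, n = 4) in wild-type muscle (adjusted p = 0.200). The fast-fibre list had 11 tested genes, 4 above 0 and 7 below, with a median of -0.01. Among them Myh2, the myosin of IIa fibres, stood at 12.81, 12.65 and 12.20 in PWS-IC del muscle, against 13.80, 12.92, 13.79 and 13.67 in wild-type muscle. Its groups did not overlap either, and its difference was -0.99 ± 0.24 (SE) with an adjusted p of 0.181. Myh1 differed by -0.17 and Myh4, the IIb myosin, by -0.003. The summed intensity of the fast list was 148671 to 157175 in PWS-IC del arrays and 156603 to 163048 in wild-type arrays. That of the slow list was 16041 to 34414 in PWS-IC del arrays and 11700 to 38603 in wild-type arrays. None of the markers of either list was at 0. In a fit added after seeing the data, with the mean of the slow markers as a covariate, the Casq2 difference was -1.0 (adjusted p = 0.0613). That mean differed by only -0.11 between genotypes (exact permutation p = 0.857), so the covariate could change the Casq2 difference little. Myh2 is not among the slow markers, so the fit did not cover it. The part of fibre types in the Casq2 difference was therefore not tested.

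Smooth muscle, which also uses Pln, was read in the same way. All 5 tested genes of the smooth muscle list were below 0 in PWS-IC del muscle, with a median of -0.56. Of them 3 had no overlap, against 5.86% of all genes, and none was called. Acta2, the smooth muscle actin, read 11.03, 10.85 and 10.72 in PWS-IC del muscle, against 11.53, 11.51, 11.32 and 11.37 in wild-type muscle (difference -0.56, adjusted p = 0.0840). Myh11, the smooth muscle myosin, was -0.71 with an adjusted p of 0.106. The summed intensity of the 6 listed genes was 3124 to 3918 in PWS-IC del arrays and 4721 to 5232 in wild-type arrays, with none at 0. All 8 endothelial genes were below 0 too (median -0.38), with sums of 2516 to 3619 in PWS-IC del arrays and 3470 to 4621 in wild-type arrays. Macrophage genes were above 0 in 6 of 7 cases (median 0.39). The part of these cells in the Pln difference was not tested.

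The fast-fibre calsequestrin differed by less than the spread between its arrays. Casq1 read 13.41, 13.53 and 13.46 in PWS-IC del muscle, against 13.27, 13.45, 13.44 and 13.47 in wild-type muscle, a difference of 0.06 ± 0.08 (SE). The groups overlapped, and wild-type 1 was the low array of its group. Whether the Casq1 and Casq2 differences differ from each other was not tested.

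Among the pumps, Atp2a1, which encodes the fast-fibre pump SERCA1, read 13.78, 13.73 and 13.63 in PWS-IC del muscle, against 13.85, 13.69, 13.72 and 13.72 in wild-type muscle. The groups overlapped and the difference was -0.03 ± 0.08 (SE). Atp2a2, which encodes SERCA2, read 12.41, 11.23 and 11.57 in PWS-IC del muscle, against 12.11, 10.36, 12.54 and 12.39 in wild-type muscle. Wild-type 2 was low and PWS-IC del 1 was high, so the arrays of each genotype spread over more than 1 unit and the difference of -0.11 ± 0.52 (SE) was far inside that spread. Wild-type 2 was also the muscle array highest in neuron markers, and without it the Atp2a2 difference was -0.61. The mean of the measured fat cell markers was highest in PWS-IC del 2 and wild-type 2, at 11.55 and 11.33, with the other muscle arrays at 9.28 to 10.81. The part of neuron and fat cell markers in the spread of Atp2a2 was not tested. The 5 tested probe sets of Atp2a2 differed by -0.13 to -0.06, and a 6th was too dim to be tested. Sln encodes sarcolipin, a small membrane peptide that inhibits the pumps and makes them release heat. It read 9.86, 7.26 and 7.85 in PWS-IC del muscle, against 7.92, 7.62, 8.72 and 8.34 in wild-type muscle. PWS-IC del 1 was the highest array and PWS-IC del 2 the lowest, and the difference was 0.17 ± 0.56 (SE). Without PWS-IC del 1 the Sln difference was -0.59, and without PWS-IC del 2 it was 0.71.

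The release channels did not pass the test on any probe set. Ryr1, the release channel of skeletal muscle, read 13.44, 13.45 and 13.42 in PWS-IC del muscle, against 13.64, 13.53, 13.62 and 13.42 in wild-type muscle, a difference of -0.12 ± 0.08 (SE, adjusted p = 0.595). Its second probe set read 10.96, 10.69 and 10.64 in PWS-IC del muscle, against 11.82, 10.93, 11.41 and 11.20 in wild-type muscle. There the difference was -0.57 ± 0.19 (SE) with an adjusted p of 0.297, and PWS-IC del 1 lay just above wild-type 2. The probe sets of Ryr1 thus differed in size of difference, and neither passed the test, although the second did with array quality weights (-0.63, adjusted p = 0.0346). Ryr3, the minor isoform of most adult muscles, read 5.75, 6.12 and 6.41 in PWS-IC del muscle, against 6.18, 5.96, 6.15 and 6.01 in wild-type muscle. Its difference was 0.02 ± 0.15 (SE) at a level not far above the pseudocount, which is 4.00 on this scale, and its other 2 probe sets were too dim to be tested.

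The triad proteins gave the remaining values. Trdn encodes triadin, which ties calsequestrin to the ryanodine receptor. Its brightest probe set read 13.29, 13.30 and 13.39 in PWS-IC del muscle, against 13.50, 13.29, 13.42 and 13.31 in wild-type muscle, with overlapping groups and a difference of -0.05 ± 0.08 (SE). A dimmer probe set, 1451801_at, read 11.70, 11.82 and 11.71 in PWS-IC del muscle, against 11.41, 11.61, 11.50 and 11.37 in wild-type muscle. It was the only member probe set with every mutant array above every wild-type array, at 0.27 ± 0.09 (SE) with an adjusted p of 0.299. The 6 probe sets of Trdn ranged from -0.12 to 0.27. Jph1 encodes junctophilin 1, which holds the store's membrane to the surface tubules. It read 12.43, 12.42 and 12.40 in PWS-IC del muscle, against 12.38, 12.51, 12.52 and 12.37 in wild-type muscle, a difference of -0.03 ± 0.07 (SE). Its second probe set read 10.63, 10.44 and 10.31 in PWS-IC del muscle, against 10.18, 9.80, 10.19 and 10.51 in wild-type muscle, with overlapping groups and a difference of 0.29.

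Over all probe sets of the 10 genes, 23 of 27 passed the filter on dim values in muscle. None was called, against 0.142% of the 33777 tested, and 6 had an unadjusted p under 0.05, against 12.1%. The lowest adjusted p was 0.109, for Casq2. Groups did not overlap for 4 probe sets that were lower and 1 that was higher, against 6.76% and 5.13% of all probe sets. The 4 were those of Casq2 and Pln. With array quality weights, which passed 2998 of the 33777 probe sets, 6 of the 23 member probe sets were called. They were those of Casq2 and Pln, the second of Ryr1, and Trdn 1451801_at at 0.33 (adjusted p = 0.0312). Of the 6, 3 are probe sets of Pln and share their samples.

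**Figure D2:**
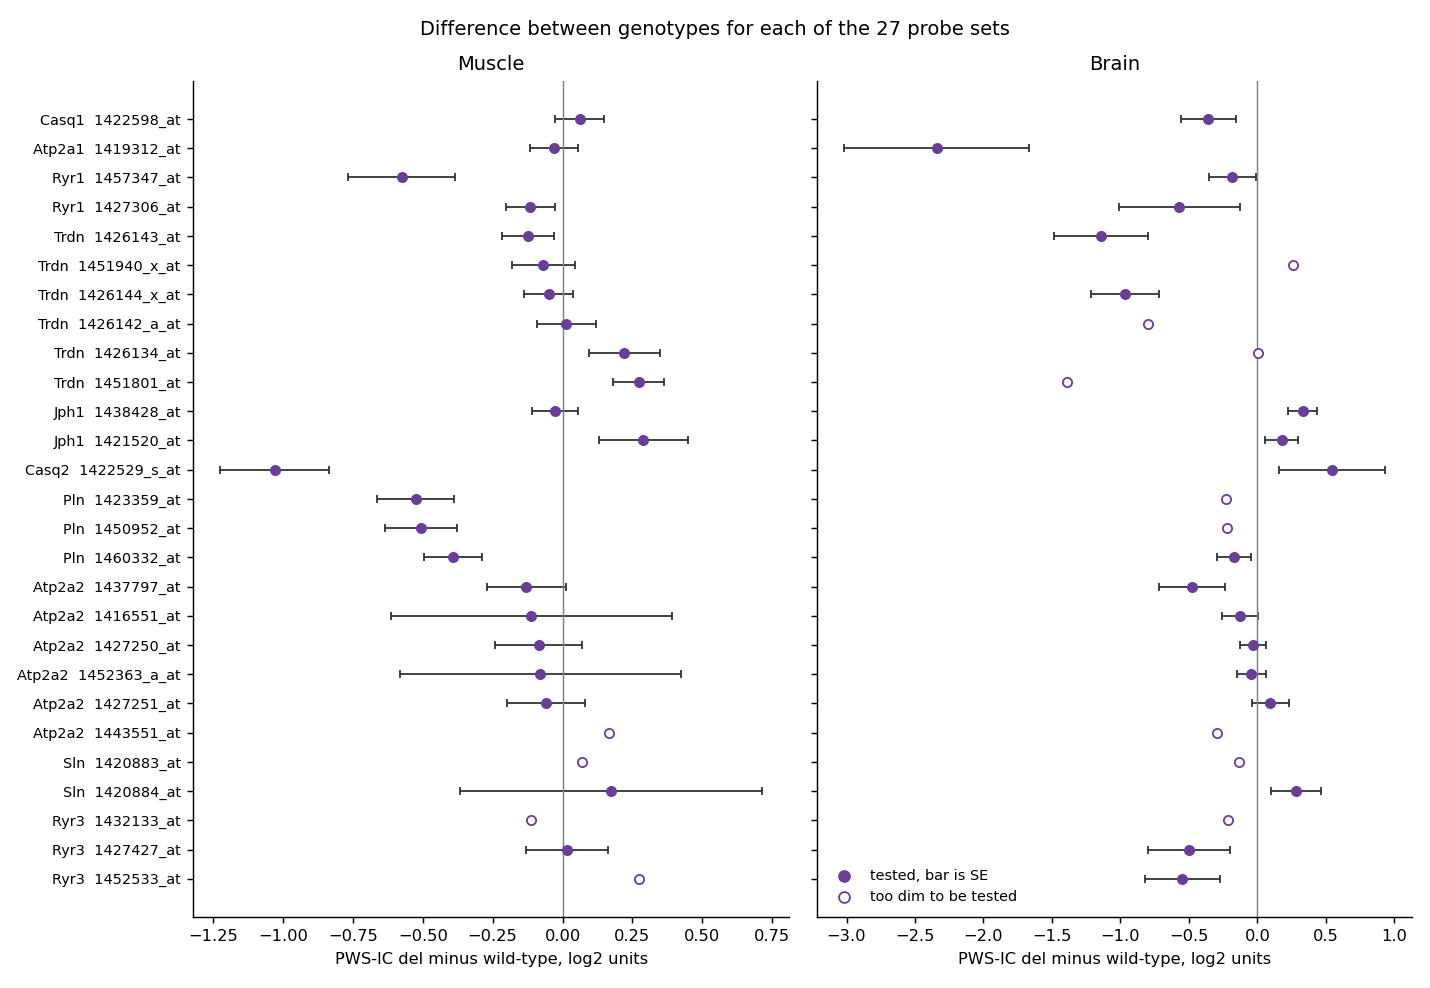
Difference of each member probe set, PWS-IC del minus wild-type, in log2(intensity + 16), for muscle and brain, with bars of 1 SE for tested probe sets (filled) and open circles for those too dim to be tested. In muscle the Casq2 probe set is lowest at -1.03 and the 3 Pln probe sets lie at -0.53 to -0.39, and in brain Atp2a1 is lowest at -2.34.

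Much of the spread of Atp2a2 between muscle arrays went with the slow-fibre markers. The mean of the 10 slow markers was 11.16, 10.11 and 10.34 in the PWS-IC del arrays, against 10.89, 9.29, 11.21 and 11.20 in the wild-type arrays, and this mean did not separate the genotypes (exact 2-sided permutation p = 0.857). Myh7, the slow myosin, read 12.20, 10.59 and 10.95 in PWS-IC del muscle, against 11.33, 8.82, 12.03 and 11.80 in wild-type muscle. Wild-type 2 was lowest in both measures. Over the 7 muscle arrays, Atp2a2 followed the slow mean with a Pearson r of 0.998 (permutation p = 3.97e-04, adjusted p = 0.00397 over the 10 genes). Spearman's rho was 0.964 (permutation p = 0.00278, adjusted p = 0.0278). Without the 2 arrays farthest from the median, wild-type 2 and PWS-IC del 2, r was 0.991. Both measures come from the same arrays, so they also share anything that moved a whole array.

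The other members did not pass this test. Sln had r = 0.685 (permutation p = 0.0875, adjusted p = 0.438) and rho = 0.857 (permutation p = 0.0238, adjusted p = 0.119), with r = 0.608 without the same 2 arrays. Casq2, the slow calsequestrin, had r = 0.427 (adjusted permutation p = 0.640) and rho = 0.536 (adjusted permutation p = 0.533), with r = 0.692 without the same 2 arrays. Pln had r = 0.400 (adjusted permutation p = 0.640) and rho = 0.571 (adjusted permutation p = 0.533), with r = 0.618 without them. The fast genes Casq1 and Atp2a1 had r of -0.313 and 0.434.

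Casq2 had a higher r with the mean of the 11 fast-fibre markers than with the slow mean, and whether the correlations differ was not tested. With the fast mean, its r was 0.919 (permutation p = 0.00298, adjusted p = 0.0298 over the 10 genes) and its rho 0.929 (permutation p = 0.00675, adjusted p = 0.0675). Without PWS-IC del 3 and wild-type 3, r was 0.969. Pln had r = 0.786 (adjusted permutation p = 0.167) and rho = 0.821 (adjusted permutation p = 0.171), with r = 0.929 without the same arrays, and Ryr1 had r = 0.704 (adjusted permutation p = 0.277) and rho = 0.571 (adjusted permutation p = 0.432), with r = 0.563. The fast mean itself was 13.75, 13.72 and 13.65 in PWS-IC del muscle, against 13.82, 13.75, 13.84 and 13.79 in wild-type muscle, a difference of -0.09 (exact 2-sided permutation p = 0.0571). Among its markers Myh2 differed most, at -0.99 with SDs of 0.32 (n = 3) and 0.42 (n = 4), while the others differed by -0.17 to 0.13. The fast mean thus leaned on Myh2, and the correlations without Myh2 were not computed. The correlations with either mean run over both genotypes, with too few arrays to test the relation within either. The part of the fast fibres in the Casq2 difference was not tested.

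**Figure D3:**
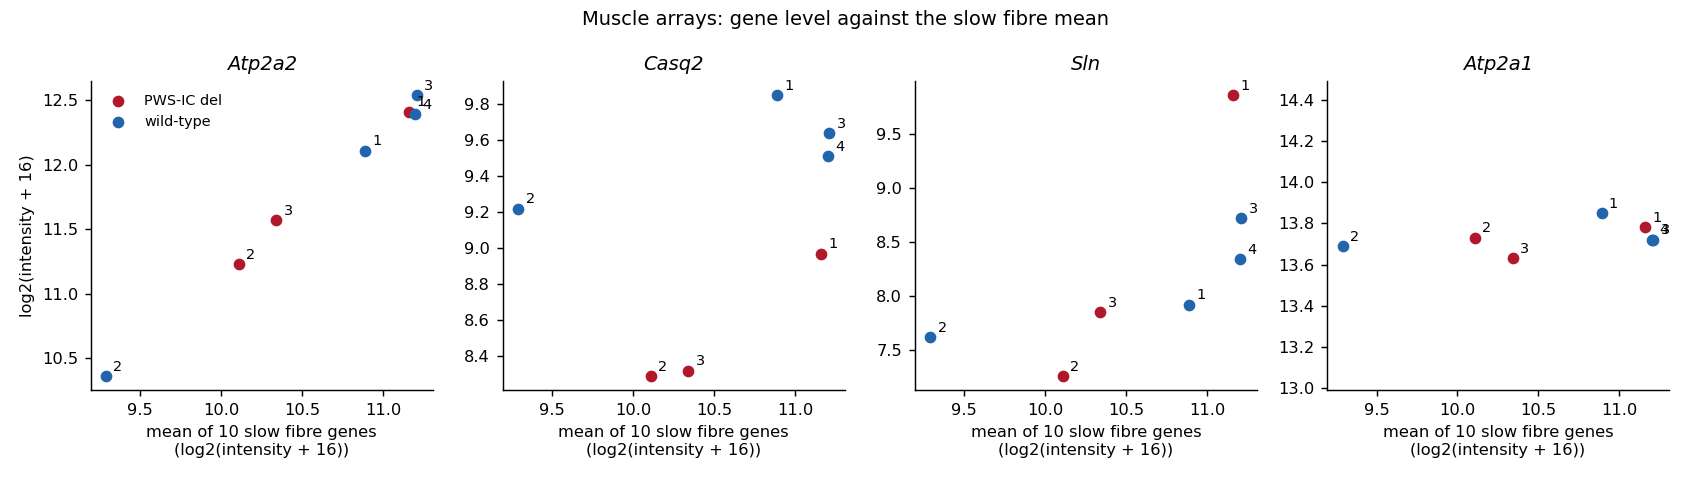
Level of Atp2a2, Casq2, Sln and Atp2a1 in each muscle array against the mean of 10 slow-fibre markers in the same array, both in log2(intensity + 16), with PWS-IC del and wild-type arrays in separate colours and numbers for replicates. Atp2a2 lies along a line over all 7 arrays (r = 0.998), while for Casq2 (r = 0.427) every PWS-IC del array lies below every wild-type array.

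The genes whose pattern over the 7 muscle arrays was most like that of Casq2, members left out, were Dach2 (r = 0.996), Hadha (0.995), Zfp629 (0.984), Pias4 (0.983) and Idh2 (0.982). Dach2, a transcriptional cofactor, read 7.99, 7.29 and 7.25 in PWS-IC del muscle, against 8.94, 8.36, 8.87 and 8.67 in wild-type muscle, a difference of -1.20 ± 0.21 (SE, adjusted p = 0.0838). Hadha, an enzyme of mitochondrial fatty acid oxidation, differed by -0.40, and Idh2, a mitochondrial dehydrogenase, by -0.67, and none of the 5 passed the test. The genes most like Sln were Slc20a1 (r = 0.993), Gadd45gip1 (0.987), Smg5 (0.978), Hdac8 (0.972) and Aar2 (0.970), with differences of -0.01 to 0.05. These are the highest values among all genes tested in muscle, each over 7 points, and are given as a description.

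A list of 46 further calcium handling genes was read for comparison, of which 42 had a probe set with 1 symbol and 37 were tested in muscle. Of these 16 were above 0 and 21 below, with a median of -0.02 and none called. At an unadjusted p under 0.05, 1 was higher and 5 were lower, against 11.9% of all genes in either direction. Groups did not overlap for 3 higher and 4 lower, against 6.31% and 5.86% of all genes. Mrln, which encodes myoregulin, a micropeptide that inhibits SERCA1, was the higher gene. It averaged 11.35 ± 0.08 (SD, n = 3) in PWS-IC del muscle and 10.73 ± 0.22 (SD, n = 4) in wild-type muscle, without overlap, a difference of 0.62 ± 0.12 (SE, adjusted p = 0.107). The next in order of p were Ank1 at -0.26, the pump gene Atp2a3 at -0.41, the inositol trisphosphate receptor Itpr3 at -0.21, the surface calcium pump Atp2b1 at -0.20 and junctophilin 2, Jph2, at -0.18. The calcium-dependent kinase genes Camk2b and Camk2g followed at -0.21 and -0.14. Adjusted p-values of these 7 were 0.347 to 0.479.

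In brain, 8 of the 10 genes passed the filter and none was called, against 0.066% of the 13644 genes tested. Sln and Trdn were below the filter over genes, although the same probe sets passed the filter over probe sets and were tested there. At an unadjusted p under 0.05, Atp2a1 was lower and Jph1 was higher, against 8.2% of all genes in either direction. Their groups did not overlap, which is 1 of 8 lower and 1 of 8 higher, against 2.87% and 5.78% of all genes. The members' median difference was -0.26, and that of all genes was 0.06.

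**Figure D4:**
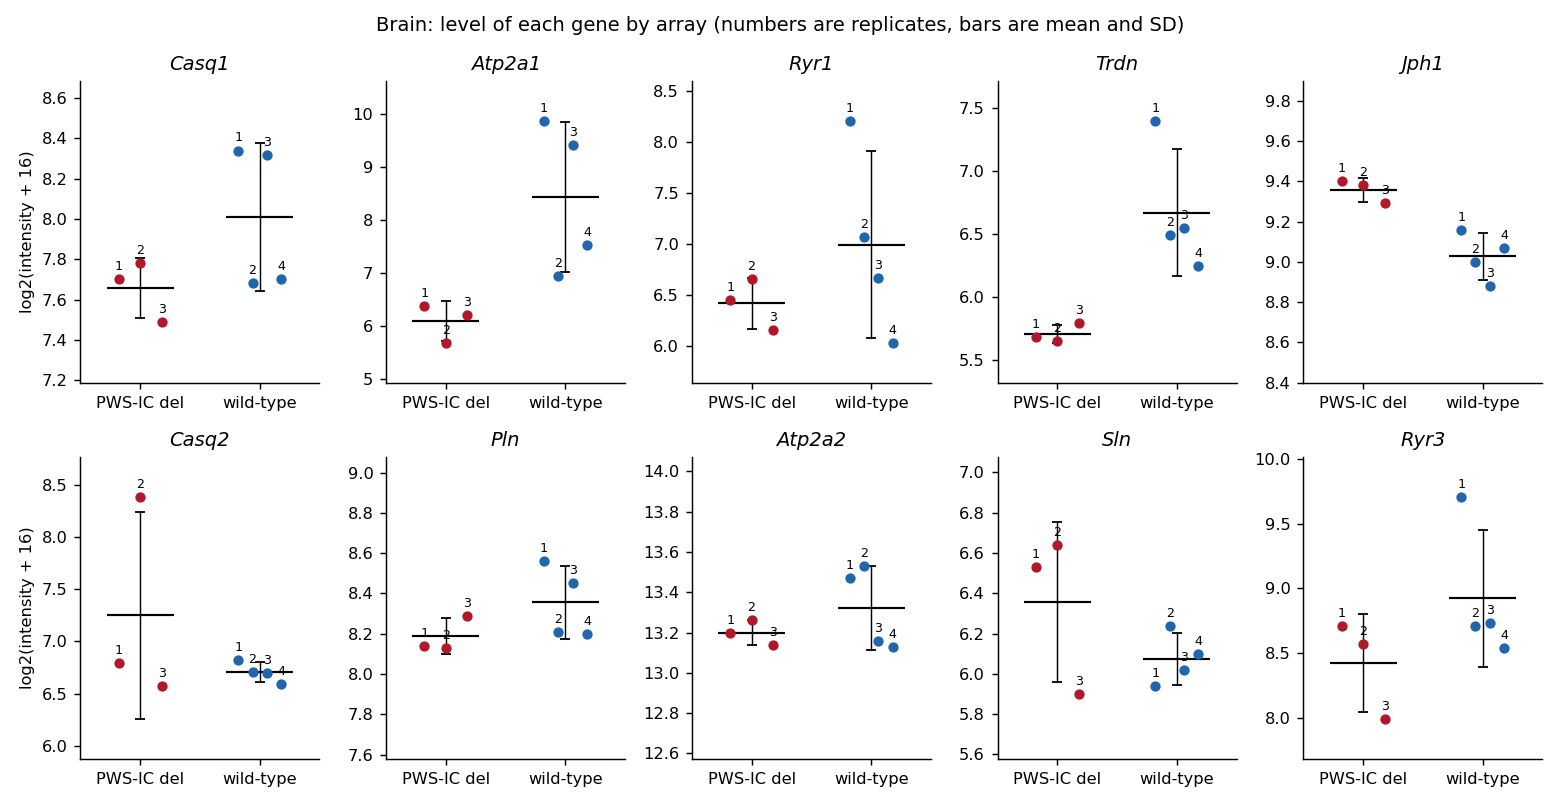
Level of each of the 10 genes in brain as log2(intensity + 16), by array, with PWS-IC del (n = 3) left of wild-type (n = 4) in each panel, numbers for replicates and bars for mean and SD. Each panel has its own range. Wild-type 1 and 3 are the high arrays for Casq1 and Atp2a1, and PWS-IC del 2 is the high array for Casq2.

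Atp2a1 read 6.39, 5.68 and 6.22 in PWS-IC del brain, against 9.87, 6.95, 9.41 and 7.53 in wild-type brain. Wild-type 1 and 3 were high, and the difference was -2.34 ± 0.65 (SE, adjusted p = 0.556). Muscle transcripts were high in the same arrays. Ckm, the muscle creatine kinase, read 6.38, 6.61 and 6.63 in PWS-IC del brain, against 10.38, 7.04, 9.61 and 7.25 in wild-type brain, and Myh4 read 5.77, 5.83 and 6.38 in PWS-IC del brain, against 10.78, 6.82, 10 and 6.79 in wild-type brain. All 9 genes of the list of skeletal muscle markers were below 0 in PWS-IC del brain, with summed intensity of 947 to 1422 in PWS-IC del arrays and 1249 to 10886 in wild-type arrays, and none was at 0. Without wild-type 1 and 3 the Atp2a1 difference was -1.14.

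Casq1 and Ryr1, also genes of skeletal muscle, gave smaller differences in the same fit. Casq1 read 7.70, 7.78 and 7.49 in PWS-IC del brain, against 8.34, 7.68, 8.32 and 7.70 in wild-type brain, and its difference of -0.36 was -0.04 without wild-type 1 and 3. Ryr1 read 6.45, 6.66 and 6.16 in PWS-IC del brain, against 8.21, 7.07, 6.67 and 6.03 in wild-type brain, and its difference of -0.57 was -0.12 without them. Wild-type 1 and 3 were the high arrays for Casq1, but wild-type 1 alone was for Ryr1. The brightest Trdn probe set read 5.68, 5.65 and 5.79 in PWS-IC del brain, against 7.40, 6.49, 6.55 and 6.25 in wild-type brain, with no overlap and a difference of -0.97 (adjusted p = 0.614 over all probe sets). For another Trdn probe set, 1426143_at, the difference of -1.14 was -0.73 without wild-type 1 and 3. Without the arrays high in Pcp2, Atp2a1 was at -1.81, Ryr1 at -0.79, Ryr3 at -0.63 and Jph1 at 0.27.

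The remaining members also gave smaller differences than Atp2a1. Jph1 read 9.40, 9.38 and 9.29 in PWS-IC del brain, against 9.16, 9.0, 8.88 and 9.07 in wild-type brain, without overlap, a difference of 0.33 ± 0.10 (SE, adjusted p = 0.556) that was 0.33 without wild-type 1 and 3. Atp2a2, whose pump fills the endoplasmic reticulum of most cells, read 13.20, 13.26 and 13.14 in PWS-IC del brain, against 13.47, 13.53, 13.16 and 13.13 in wild-type brain, a difference of -0.13, and of -0.13 without wild-type 1 and 3. Ryr3, a release channel found in brain, read 8.71, 8.57 and 7.99 in PWS-IC del brain, against 9.71, 8.71, 8.73 and 8.54 in wild-type brain, and its difference of -0.50 was -0.20 without wild-type 1 and 3. The groups of Atp2a2 and Ryr3 overlapped.

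Casq2 and Pln, the members that separated in muscle, overlapped between genotypes in brain. Casq2 read 6.79, 8.39 and 6.57 in PWS-IC del brain, against 6.82, 6.71, 6.70 and 6.59 in wild-type brain, so its difference of 0.55 came with 1 high array and was -0.02 without PWS-IC del 2. Pcp2 read 8.19, 16.76 and 8.26 in PWS-IC del brain, against 8.60, 8.79, 13.03 and 8.29 in wild-type brain. PWS-IC del 2 was thus high in both Casq2 and Pcp2, while wild-type 3 was high in Pcp2 and not in Casq2. The 4 measured Purkinje cell markers summed to 13375 to 131549 in PWS-IC del brain and 14111 to 22340 in wild-type brain, with 3 of 4 above 0 and none at 0. Without both arrays high in Pcp2 the Casq2 difference was -0.02. Pln read 8.14, 8.13 and 8.29 in PWS-IC del brain, against 8.56, 8.21, 8.45 and 8.20 in wild-type brain, a difference of -0.17 that was -0.02 without wild-type 1 and 3. Sln read 6.53, 6.64 and 5.90 in PWS-IC del brain, against 5.94, 6.24, 6.02 and 6.10 in wild-type brain.

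Of the 27 member probe sets, 18 were tested in brain and none was called, against 0.0711% of all. At an unadjusted p under 0.05 there were 4, against 6.35%, and groups did not overlap for 3 lower and 1 higher, against 3.39% and 4.48%. Of the 37 further calcium handling genes tested in brain, 14 were above 0 and 23 below, with a median of -0.03 and none called. No groups separated, against 2.87% lower and 5.78% higher of all genes. At an unadjusted p under 0.05, 2 were lower, against 8.2% of all genes in either direction.

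Whether the genotype difference itself differed between muscle and brain was tested over all 14 arrays. None of the 10 genes passed, against 0.0803% of 14951 genes. Casq2 had a difference in muscle minus that in brain of -1.58 ± 0.47 (SE, adjusted p = 0.542). Atp2a1 had 2.31 ± 0.74 (SE, adjusted p = 0.594), which was 1.11 without brain wild-type 1 and 3. The Casq2 difference was therefore not shown to differ between the tissues.

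The levels themselves separated the tissues widely. Of the 8 members that passed the filter on dim values in both tissues, 7 passed the test of muscle against brain in wild-type mice, 5 higher and 2 lower in muscle, where 82.3% of all 14951 genes passed, 22.8% higher and 59.5% lower. Ryr1 was 6.56 ± 0.32 (SE) higher in muscle, Casq1 5.40 ± 0.15 and Atp2a1 5.31 ± 0.48. Jph1 was 3.42 ± 0.08 higher and Casq2 2.85 ± 0.31. These 5 had adjusted p-values of 7.09e-14 to 6.74e-07. Trdn and Sln passed the filter over genes through muscle alone, so the size of their gap depends on a dim brain level below that filter. Trdn averaged 13.38 ± 0.10 in wild-type muscle and 6.67 ± 0.50 in wild-type brain, and Sln 8.15 ± 0.48 in wild-type muscle and 6.07 ± 0.13 in wild-type brain (SD, n = 4 each). Without brain wild-type 1 and 3, the Atp2a1 gap was 6.50 and that of Ryr1 was 7.0.

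Atp2a2 and Ryr3 were higher in brain. Atp2a2 averaged 11.85 ± 1.01 (SD, n = 4) in wild-type muscle and 13.32 ± 0.21 (SD, n = 4) in wild-type brain, a difference of -1.47 ± 0.38 (SE, adjusted p = 0.00264). Ryr3 averaged 6.07 ± 0.11 (SD, n = 4) in wild-type muscle and 8.92 ± 0.53 (SD, n = 4) in wild-type brain, a difference of -2.85 ± 0.23 (SE, adjusted p = 3.29e-08). Pln averaged 8.35 ± 0.13 in wild-type muscle and 8.36 ± 0.17 in wild-type brain (SD, n = 4 each), a difference of -0.005 with an adjusted p of 0.966. These comparisons depend on how arrays are scaled, because the median difference of all genes was -0.52 and centring each array on its median adds 0.676 to every difference. With that centring Atp2a2 was at -0.80 and no longer passed (adjusted p = 0.0682), and Pln was 0.67 higher in muscle. Over all genes, 3403 were higher and 8898 lower in muscle as deposited, against 6695 higher and 5270 lower with centring and 6893 higher and 5316 lower with quantile normalization.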

How the data were processed

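RNA of 14 samples was measured on 1-colour arrays. The authors deposited 1 intensity value per probe set and array, on a linear scale, made with PLIER and Affymetrix Expression Console, per the submitters' processing notes. The sources used here give neither its settings nor any background correction or scaling across arrays. These set how far levels compare between tissues. Of 45101 probe sets, 64 controls were left out. The platform annotation, which can be old, gave 1 symbol to 34945 probe sets, several to 932 and none to 9160. No member probe set had several symbols.

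Values were taken as log2(intensity + 16), which understates changes of dim genes. For each gene the brightest 1-symbol probe set on average over all arrays was used, and every probe set was also tested on its own. Features at or below the 0.25 quantile of the tissue's means were not tested. Linear models were fitted with limma 3.58.1 (R 4.3.3, moderated by eBayes), with 2-sided p-values adjusted by Benjamini-Hochberg over all features and a threshold of 0.05. Each tissue was fitted alone, and all 14 arrays together for the tissue and interaction contrasts. The fits were tested on simulated data. Exact permutation tests covered single values and correlations. Figures were drawn with matplotlib 3.10.9 in Python 3.11.15. The number of arrays limits the precision.

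Named were all member probe sets, the 8 further calcium genes with the smallest p in muscle, fixed markers of each list, the 5 genes most like Casq2 and the 5 most like Sln, and Snhg14 or Ndn as a check. The members, lists and rules were chosen with earlier results of these data known. Alternatives covered the pseudocount, scaling, filter, intensity trend, threshold, array weights, joint fit, replicate block, mean of probe sets and leaving out arrays. A slow-marker covariate, a brain fit without the arrays high in Pcp2, and tissue and interaction fits without brain wild-type 1 and 3 were added after seeing the data.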

Additional observations from a re-analysis of the deposited data

Results flagged for a closer look

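In 4 of 54 groups of 4 arrays, 1 array lay apart from the other 3 by Dixon's test, and chance flags about 1 in 20 groups. In wild-type muscle, Casq1 was lowest in array 1 at 13.27, with the others at 13.44 to 13.47. The other 3 cases were all brain array wild-type 1, which carried skeletal muscle transcripts. The brightest Ryr3 probe set was highest there at 9.71, with the others at 8.54 to 8.73. A dim Trdn probe set, 1426142_a_at, was highest there at 6.11, with the others at 4.92 to 5.10. The second Jph1 probe set was lowest there at 7.89, with the others at 8.13 to 8.18.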

How the results depend on the processing

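The number of arrays per group limits every comparison, and dim genes give differences that the pseudocount shrinks. No member was called in the genotype and interaction fits under any alternative but array quality weights in muscle, and between tissues 9 of 10, with the dim Trdn and Sln among them, were called under all alternatives but quantile normalization, where Pln made 10. With median centring Pln was called in place of Atp2a2.

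Of all muscle genes, 16 passed in the main fit, against 29 with pseudocount 64, 46 with quantile normalization and 25 with median centring. There were 8 with no filter, 59 with an intensity trend, 84 at a threshold of 0.1, 39 in the joint fit and 30 with the slow-marker covariate. With array quality weights 1861 of 13644 genes passed. These included 2 of the 10 members, Casq2 at -1.22 (adjusted p = 0.00517) and Pln at -0.48 (adjusted p = 0.0147). Of muscle probe sets, 48 passed, against 29 with no filter, 95 with a trend, 136 at 0.1 and 2998 of 33777 with weights. Of the 23 member probe sets, 6 passed with weights, Ryr1 1457347_at and Trdn 1451801_at besides those of Casq2 and Pln. In brain 9 genes passed, against 6 without wild-type 1 and 3 and 5 without the arrays high in Pcp2, and 24 probe sets passed. For the interaction 12 passed, against 6 with pseudocount 1, 6 without brain wild-type 1 and 3, and 20 at 0.1. The cause of these changes was not tested.

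Most same-numbered arrays did not deviate together (correlations of 0.076, 0.522 and 0.011 in muscle, -0.057, -0.346 and -0.521 in brain, and -0.025 to 0.138 between tissues). The exception at 0.522 was PWS-IC del 2 with wild-type 2 in muscle. Each was the lowest array of its genotype in the slow-fibre mean, at 10.11 and 9.29, and what this pair shares was not tested. The replicate numbers were not taken to pair samples. With the replicate number as a block, 2 muscle genes, 12 muscle probe sets, 3 brain genes, 11 brain probe sets and 6 interaction genes passed, with no member called in these comparisons.

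Differences that changed sign were not called under the settings below, except Pln between tissues with quantile normalization (adjusted p = 5.67e-06) and centring (adjusted p = 3.71e-05), and their causes were not tested. In muscle, Jph1 was 0.0048 with median centring and 0.13 with the mean of probe sets, Atp2a1 0.0044 with centring, Trdn 0.044 with the mean, Sln -0.78 with weights, Ryr3 -0.0055 with the block, and Atp2a2 0.068 with the block and 0.0077 with the covariate. Among probe sets, Trdn 1426142_a_at was -0.065 with weights and -0.040 with the block, Atp2a2 1427251_at 0.030 with the block, and Atp2a2 1452363_a_at 0.11 with the block and 0.041 with the covariate. In brain, Casq2 was -0.022 without the arrays high in Pcp2, and with centring Atp2a2 1427250_at was 0.045 and 1452363_a_at 0.031. For the interaction, Sln was 0.0084 with pseudocount 64 and 0.047 with the mean, and Atp2a2 -0.029 with centring. Between tissues, Pln was 0.82 with quantile normalization, 0.67 with centring, 0.18 with the mean and 0.14 without brain wild-type 1 and 3.

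Leaving out each array in turn gave 6 (without PWS-IC del 2) to 25 (without wild-type 2) muscle genes, 16 (without PWS-IC del 2) to 68 muscle probe sets and 7 to 16 interaction genes, with no member called. In muscle, Atp2a2 ranged from -0.61 to 0.14, Atp2a1 from -0.063 to 0.013, Ryr3 from -0.14 to 0.19, Sln from -0.59 to 0.71, Trdn 1426142_a_at from -0.057 to 0.057, Trdn 1451940_x_at from -0.12 to 0.012, Atp2a2 1427250_at from -0.27 to 0.10, Atp2a2 1427251_at from -0.14 to 0.066 and Atp2a2 1452363_a_at from -0.57 to 0.17. In brain, Casq2 ranged from -0.02 to 0.89, Atp2a2 1427250_at from -0.050 to 0.0011 and 1452363_a_at from -0.087 to 0.0053. For the interaction, Atp2a2 ranged from -0.48 to 0.27 and Sln from -0.88 to 0.43. Between tissues, Pln ranged from -0.056 to 0.062.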
